A study of Mus musculus with 20 samples.

Results

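The genes described here are 88 chromatin regulators of the mouse, chosen by symbol from the 23361 entries of the deposited count tables. They are all entries named Hdac, Sirt, Cbx, Pcgf, Phc, Kdm, Setd or Chd with a number, all Smarc entries, and Setdb1, Setdb2, Ezh1, Ezh2, Eed, Suz12 and Jarid2. All 88 passed the filter on low counts in the fit of both lines, and all but Kdm4d in the fits of 1 line. Levels are in CPM, a gene's counts scaled to a library total of 1000000. Their median level over the 20 libraries was 100 CPM or more in 38, 10 to 100 in 39 and under 10 in 11. Of 91 symbols that fit these names, 3 were left out by name (Kdm5c, Kdm5d and Kdm6a). The rule uses symbols and no expression value. By textbook function 87 fall into 12 groups, and the remaining entry, Smarca5-ps, is annotated as a transcribed pseudogene.

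Stranded mRNA libraries were made from a female mouse embryonic stem cell line, PGK, and a male one, E14, as they were converted to epiblast stem cells. Day 0 cells were grown in 2i medium, and all later cells in N2B27 with activin A and Fgf2 on fibronectin. Each line was sampled at day 0, day 4, day 10, once at days 19 to 23 and once at days 27 to 30, in 2 differentiation experiments named diff2 and diff3, giving 20 libraries in 10 groups of n = 2. With 1 line of each sex, the sexes cannot be told apart from the lines. Total counts ran from 2020254 to 26936415 per library, and the E14 diff3 libraries of day 0 (3376500) and day 4 (2020254) were the shallowest. The summed level of 10 naive pluripotency genes was 4371 to 6421 CPM at day 0 and 80.9 to 434 later, and that of 10 primed genes was 79.6 to 144 at day 0 and 1315 to 3120 later. The diff2 libraries of days 0, 4 and 10, 6 in all, have a code in the title, unlike the other 14.

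Chromatin regulators add, remove or read chemical marks on histones, or move nucleosomes with energy from ATP. Polycomb repressive complex 2 (PRC2) places methyl groups on lysine 27 of histone H3, chromobox proteins of PRC1 read that mark, and PRC1 modifies histone H2A. Histone deacetylases (HDACs) and sirtuins remove acetyl groups, KDM proteins remove methyl groups, SET proteins add them, and CHD, SWI/SNF and ISWI enzymes remodel nucleosomes. Embryonic stem cells are known to use characteristic forms of several of these families, such as Cbx7 in PRC1 and Smarca4 in SWI/SNF.

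The sequences just upstream of the start sites of 4 members are shown first, because Setd7 and Smarca1 gave the 2 smallest adjusted p of the rises described below and Suz12 and Cbx7 gave falls. They are RefSeq windows on GRCm38.p6, read 5′ to 3′ on the gene's strand, with every CG dinucleotide in capitals and bases that GENCODE M21 annotates as an exon of the same gene left out. They lie at chr3:51560880-51561073 (minus strand), chrX:47892614-47892863 (minus strand), chr11:79992856-79993105 (plus strand) and chr15:79932769-79932896 (minus strand).
Setd7: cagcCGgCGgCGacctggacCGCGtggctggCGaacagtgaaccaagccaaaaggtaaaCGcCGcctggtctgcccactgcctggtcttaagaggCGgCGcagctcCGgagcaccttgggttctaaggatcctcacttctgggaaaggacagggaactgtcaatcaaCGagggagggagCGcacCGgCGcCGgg
Smarca1: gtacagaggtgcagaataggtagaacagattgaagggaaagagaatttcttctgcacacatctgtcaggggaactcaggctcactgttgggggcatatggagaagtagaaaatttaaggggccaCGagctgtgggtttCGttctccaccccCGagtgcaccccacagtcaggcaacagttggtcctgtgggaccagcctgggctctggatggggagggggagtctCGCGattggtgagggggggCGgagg
Suz12: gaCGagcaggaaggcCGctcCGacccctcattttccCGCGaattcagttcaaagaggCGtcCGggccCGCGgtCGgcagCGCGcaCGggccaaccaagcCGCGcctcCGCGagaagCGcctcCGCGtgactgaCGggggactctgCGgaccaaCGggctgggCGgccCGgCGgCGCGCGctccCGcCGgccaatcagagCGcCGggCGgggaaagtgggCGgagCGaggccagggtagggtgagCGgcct
Cbx7: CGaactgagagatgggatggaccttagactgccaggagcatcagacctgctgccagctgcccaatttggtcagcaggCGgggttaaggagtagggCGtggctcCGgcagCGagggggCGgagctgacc
The Suz12 sequence holds 37 CG dinucleotides in 250 bases and the Smarca1 sequence 6 in 250, while Setd7 holds 16 in 194 and Cbx7 6 in 128. By GENCODE, a first exon of other Smarca1 transcripts lies directly upstream of its window, and first exons of longer Cbx7 transcripts lie upstream of the Cbx7 one, so both stretches are also intronic, while those of Setd7 and Suz12 lie before the first annotated exon of these genes. The Setd7 stretch also lies within an exon of 5031434O11Rik, an RNA of the opposite strand. Among the RefSeq windows of 250 bases before to 50 after a start, 70 of the 88 members matched, with 96 windows, and 80.21% of these were rich in CG by a rule of at least 50% GC and an observed over expected CG ratio of at least 0.6. The share over all 32851 windows of the table was 33.47%. These windows include genes that did not pass the filter on low counts, while all members passed it, so the 2 shares are of unlike sets. A match describes these letters only.

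Over both lines, 26 of the 88 members changed from day 0 to day 4, 14 upward and 12 downward, and 27 differed between day 0 and the last stage, 13 upward and 14 downward. A change is the mean of the PGK and E14 log2 fold changes in a fit of all 20 libraries, and it passed when edgeR's quasi-likelihood test with Benjamini-Hochberg adjustment over all 15732 genes tested gave an adjusted p under 0.05. The 26 members are 29.5% of the 88, against 25.6% of all genes at day 4 (14.5% upward and 11.1% downward), and the 27 are 30.7% against 35.9% at the last stage (20% and 15.9%). The count at day 4 was 14 without PGK diff2 at day 0, 16 without PGK diff2 at day 4 and 17 without E14 diff2 at day 4. The median log2 change of the members was 0.14 at day 4 and 0.01 at the last stage, and that of all genes was 0.10 and 0.08. Both comparisons use the same day 0 libraries, so their values are given side by side.

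**Figure D1:**
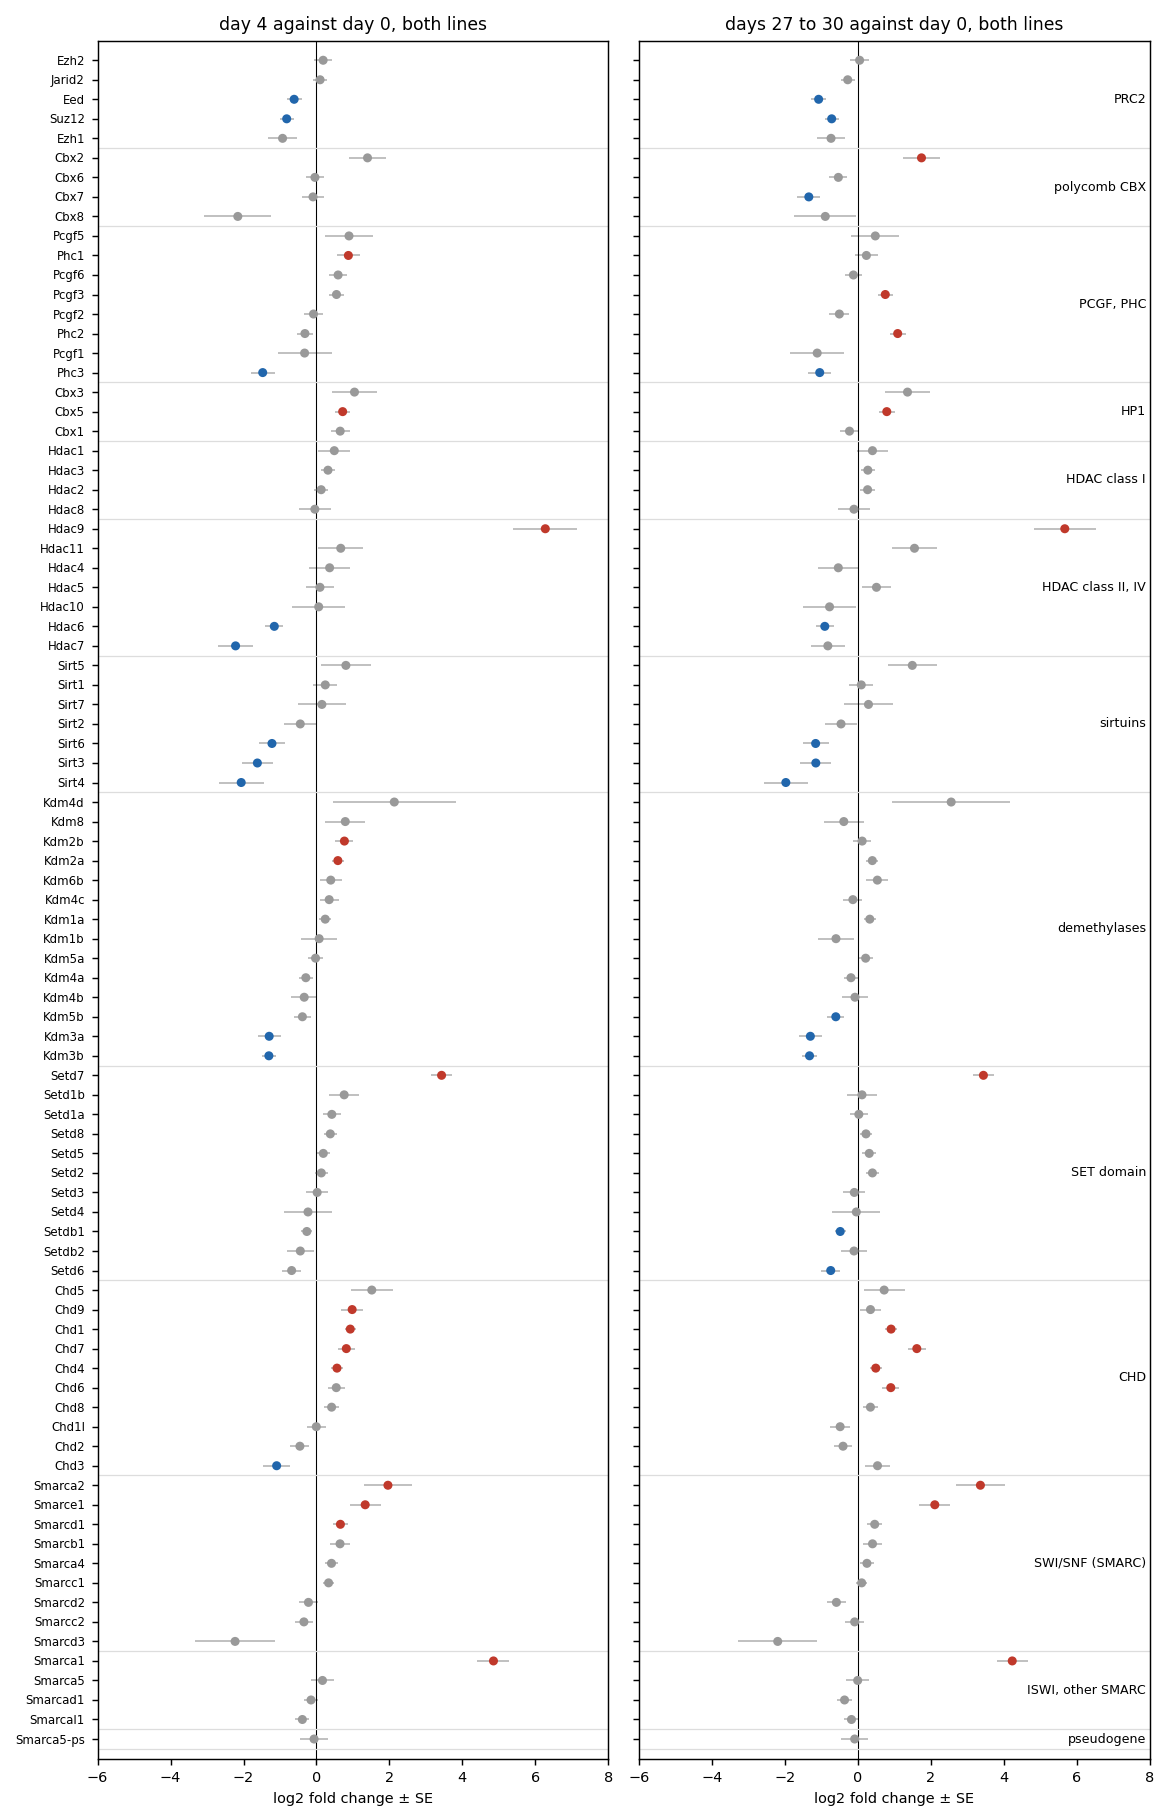
Log2 fold change ± SE of 87 members over both lines, by functional group, at day 4 (left) and days 27 to 30 (right) against day 0; red and blue points passed the test upward and downward. Hdac9, Smarca1 and Setd7 lie farthest to the right in both panels.

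In later steps few genes passed the test, among the members as among all genes. With 2 libraries per group, a member that did not pass is not shown to be unchanged. From day 4 to day 10, 2 of 88 rose (2.27%, against 2.85% of all genes), and none fell (against 0.966%), with 3.82% of all genes passing in either direction. That count was 1 without any 1 of the 4 day 4 libraries and 4 without E14 diff3 at day 10, and DESeq2 called 6. From day 10 to days 19 to 23, 0 passed, against 0% of all genes, with 3 members at an unadjusted p under 0.05 and 0 by DESeq2. From days 19 to 23 to days 27 to 30, 0 passed, again against 0%, with 1 member at an unadjusted p under 0.05 and 0 by DESeq2. The members' median absolute log2 change was 0.52 at day 4 and 0.26 from day 4 to day 10, against 0.73 and 0.39 for all genes.

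Libraries differ in other ways that go with the stage. The summed CPM of 16 fibroblast and feeder genes was 9.18 to 37.0 at day 0, with 5 of the 16 without counts in each line there, and 105 to 587 later. For 9 endoderm genes it was 22.1 to 72.9 at day 0 and 187 to 1745 later, and for 6 neural genes 52.2 to 93.3 and 132 to 681. The part of such cells in the results was not tested, and in bulk libraries fewer cells of a type and less RNA per cell cannot be told apart. In the lists that follow, CPM values of 4 libraries are always in the order PGK diff2, PGK diff3, E14 diff2, E14 diff3, and the last stage is days 27 to 30.

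In PRC2, 2 of the 5 members, the core subunits Suz12 and Eed, fell at day 4 and at the last stage, and none rose. Of all genes, 11.1% fell and 14.5% rose at day 4, and 15.9% and 20% at the last stage. No functional group was tested as a whole. Suz12, the scaffold that holds the complex together, measured 681, 765, 579 and 381 CPM at day 0, 294, 359, 278 and 392.03 at day 4 and 463, 370.0, 312 and 312 at the last stage. The day 4 values of PGK lay below both its day 0 values, while in E14 the ranges of day 0 and day 4 overlapped, since diff3 read 381 CPM and then slightly more. Its log2 change was -0.82 ± 0.19 (SE, adjusted p = 0.00425) at day 4 and -0.72 ± 0.19 (SE, adjusted p = 0.00710) at the last stage, and both calls were kept in each of the 8 fits without 1 library. Eed, which binds the methylated lysine, measured 247, 228, 330.1 and 170.3 CPM at day 0, 160.3, 173, 141.97 and 158 at day 4 and 109, 141.7, 114 and 104 at the last stage. The 4 last-stage values all lay below the 4 day 0 values, whereas at day 4 the ranges overlapped, with 173 in PGK diff3 above the 170.3 of E14 diff3 at day 0. Its log2 change was -0.61 ± 0.20 (SE, adjusted p = 0.0348) at day 4 and -1.08 ± 0.20 (SE, adjusted p = 0.000617) at the last stage. Eed no longer passed at day 4 without PGK diff2 at day 0, PGK diff2 or diff3 at day 4, E14 diff2 at day 0 or E14 diff2 at day 4 (highest adjusted p 0.122).

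Ezh2, the main methyltransferase subunit of PRC2, measured 287, 288, 254 and 89.4 CPM at day 0, 215, 218, 245 and 337 at day 4 and 215, 234, 248 and 234 at the last stage. It passed in neither comparison, with log2 changes of 0.18 ± 0.25 (SE, adjusted p = 0.657) and 0.04 ± 0.25 (SE, adjusted p = 0.916). In PGK the 2 day 4 values lay below day 0, and in E14 1 day 0 library, the shallow diff3, read 89.4 CPM and the day 4 libraries 245 and 337. Without both shallow libraries its log2 changes were -0.26 and -0.25, likewise not passing. Ezh1, its paralog, measured 60.0, 37.1, 64.1 and 56.3 CPM at day 0, 38.5, 20.6, 31.1 and 21.8 at day 4 and 36.2, 24.5, 24.4 and 45.9 at the last stage. It read lower at day 4 in all 4 pairs of libraries and did not pass, with log2 changes of -0.93 ± 0.39 (SE, adjusted p = 0.0926) and -0.74 ± 0.39 (SE, adjusted p = 0.150). With a term for the library code the day 4 value of Ezh1 passed (adjusted p = 0.0232). From CPM per kb of exon, Ezh1 made up 13.1% ± 3.8 of Ezh1 plus Ezh2 in PGK at day 0 and 10.9% ± 3.2 at the last stage (SD, n = 2). In E14 the share was 27.3% ± 12 and 11.5% ± 4.9. Jarid2, a cofactor that guides PRC2 to its targets, ran from 216 to 490.5 CPM over the 20 libraries and gave 0.10 ± 0.20 (SE, adjusted p = 0.771) and -0.28 ± 0.20 (SE, adjusted p = 0.281).

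Among the polycomb chromobox genes Cbx2, Cbx6, Cbx7 and Cbx8, Cbx7 fell and Cbx2 rose by the last stage (against 15.9% and 20% of all genes). None of these 4 passed at day 4 (against 25.6%), where Cbx2 came nearest. Cbx7, the reader of naive stem cells, measured 63.1, 62.3, 157 and 192 CPM at day 0, 129, 47.4, 124 and 88.1 at day 4 and 33.7, 29.2, 52.6 and 55.8 at the last stage. All 4 last-stage values lay below the 4 day 0 values, but at day 4 PGK diff2 was higher than at day 0, at 129 CPM, and the groups overlapped. Its log2 change was -0.10 ± 0.31 (SE, adjusted p = 0.878) at day 4 and -1.35 ± 0.32 (SE, adjusted p = 0.00341) at the last stage, and the latter was kept in all 8 fits without 1 library.

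Cbx2 measured 23.1, 34.6, 25.7 and 0.592 CPM at day 0, 56.0, 50.2, 57.9 and 47.5 at day 4 and 71.2, 66.0, 71.9 and 64.4 at the last stage. The shallow E14 diff3 library of day 0 holds 2 of its counts, and all other day 0 values are 23.1 or more. Both later stages read higher than day 0 in every line and experiment, and the log2 change was 1.40 ± 0.52 (SE, adjusted p = 0.0560) at day 4 and 1.74 ± 0.52 (SE, adjusted p = 0.0154) at the last stage. The day 4 value passed with RLE size factors (adjusted p = 0.04755), DESeq2 (adjusted p = 0.0214) and a term for the library code (adjusted p = 0.0493). Without both shallow libraries, which leaves only diff2 in E14 at days 0 and 4, the day 4 change was 0.99, again upward. The last-stage call was lost without PGK diff2 at day 0 or E14 diff2 at the last stage (highest adjusted p 0.0704), and with no low-count filter (adjusted p = 0.0525). Cbx8 gave -2.16 and -0.90 on the log2 scale and Cbx6 -0.04 and -0.54, neither passing. The day 4 value of Cbx8 was -2.37 without both shallow libraries. Without E14 diff2 at day 0 the values of Cbx8 were 1.78 and 3.01.

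Compared per kb of exon, Cbx7 made up 37.4% ± 5.9 of these 4 genes in PGK at day 0 and 16.3% ± 1.6 at the last stage. In E14 the share of Cbx7 was 59.5% ± 1.1 and then 26.3% ± 2.8 (SD, n = 2). Cbx2 went from 25.6% ± 3.6 to 54.4% ± 2.8 in PGK and from 7.65% ± 10 to 50.3% ± 0.59 in E14, so it held the largest of the 4 shares at the last stage in both lines. From CPM without the length, Cbx6 was larger there, at 45.7% in PGK and 37.6% in E14, against 36.5% and 34.3% for Cbx2. These shares have no test.

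**Figure D2:**
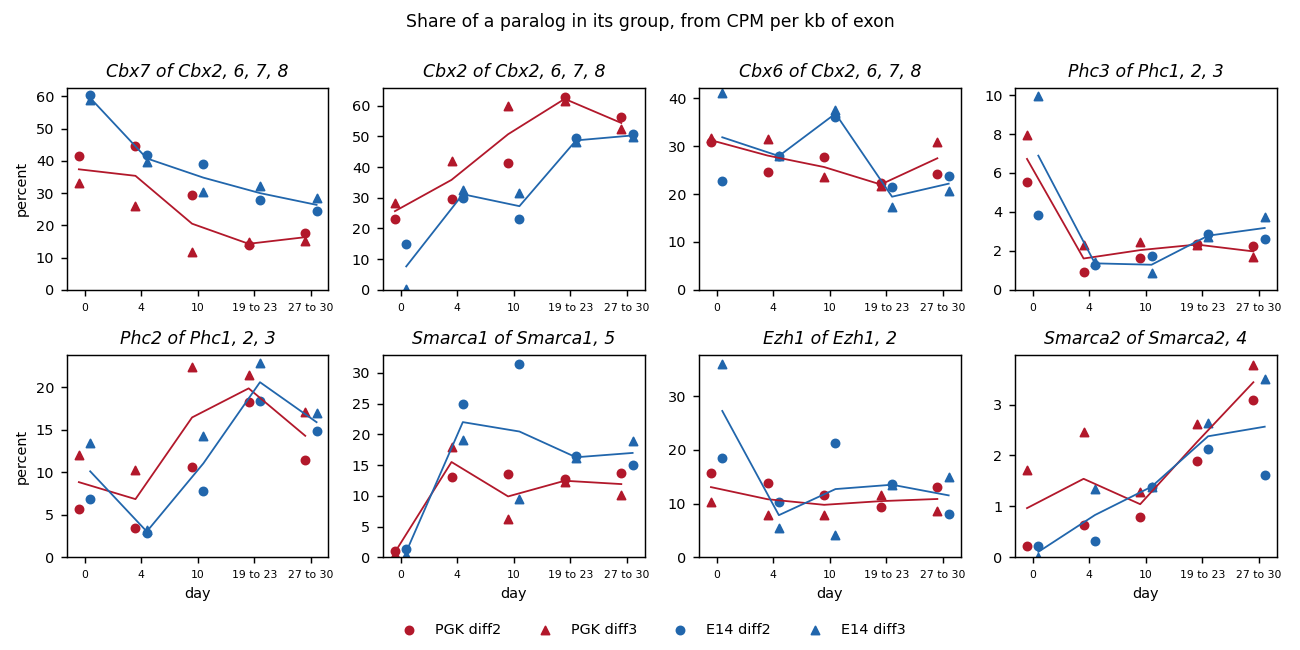
Share in percent of a gene in the summed CPM per kb of exon of its paralog group, by stage, for each library (points), with the group mean of n = 2 as a line. The mean share of Cbx7 is 16.3% in PGK and 26.3% in E14 at the last stage, and that of Cbx2 54.4% and 50.3%. The mean share of Smarca1 is under 1% in both lines at day 0.

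Among the other PRC1 members, the PCGF and PHC genes, 2 of 8 changed at day 4 (against 25.6% of all genes). At the last stage 3 differed from day 0 (against 35.9%). Phc3, a polyhomeotic protein, measured 85.0, 58.4, 67.4 and 125 CPM at day 0, 26.2, 33.2, 33.6 and 23.8 at day 4 and 38.3, 26.9, 40.7 and 58.4 at the last stage. Its day 4 values all lay below its day 0 values, with log2 changes of -1.47 ± 0.32 (SE, adjusted p = 0.00295) at day 4 and -1.05 ± 0.32 (SE, adjusted p = 0.0173) at the last stage. The last-stage call was lost without PGK diff2 at day 0, PGK diff3 at the last stage or E14 diff2 at the last stage (highest adjusted p 0.0753), and without both shallow libraries (adjusted p = 0.0598). Phc2 measured 39.9, 59.4, 29.5 and 21.8 CPM at day 4, 81.3, 101, 101 and 113 at day 10 and 78.3, 110.2, 92.6 and 108 at the last stage, from 35.5, 35.7, 48.4 and 68.1 at day 0. Of the 2 rises between day 4 and day 10 it had the smaller adjusted p, with no overlap between the stages and a log2 change of 1.46 ± 0.22 (SE, adjusted p = 0.00106), kept in all 8 fits without 1 library. Against day 0 the last stage gave 1.09 ± 0.22 (SE, adjusted p = 0.000904).

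Phc1, the polyhomeotic gene most abundant per kb, measured 414, 179, 474 and 292 CPM at day 0 and 844, 378, 749 and 482 at day 4, which rose in each pair but overlapped. Its log2 change at day 4 was 0.87 ± 0.31 (SE, adjusted p = 0.0476). Phc1 no longer passed without PGK diff3 at day 0, PGK diff2 at day 4, E14 diff3 at day 0 or E14 diff2 or diff3 at day 4 (highest adjusted p 0.303), and without both shallow libraries (adjusted p = 0.134). At the last stage it measured 442, 392.01, 386 and 377 CPM and did not pass (log2 change 0.23, SE 0.31, adjusted p = 0.595). With a term for the library code, however, the last-stage change of Phc1 was 0.76 and passed (adjusted p = 0.000873). Pcgf3, a RING-finger subunit of a variant PRC1, rose by the last stage, from 70.5, 87.2, 76.1 and 65.7 to 124, 139, 126 and 118 CPM with no overlap and a log2 change of 0.75 ± 0.20 (SE, adjusted p = 0.00863), after 0.55 ± 0.20 (SE, adjusted p = 0.0563) at day 4, where it passed with the replicate block (adjusted p = 0.0440). Its last-stage call was lost without PGK diff2 at day 0 or E14 diff2 at the last stage (highest adjusted p 0.0647). Phc1 made up 84.4% ± 6.1 of the 3 PHC genes per kb in PGK at day 0 and 83.7% ± 3.6 at the last stage, and in E14 83.0% ± 8.9 and 80.9% ± 2.2.

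**Figure D3:**
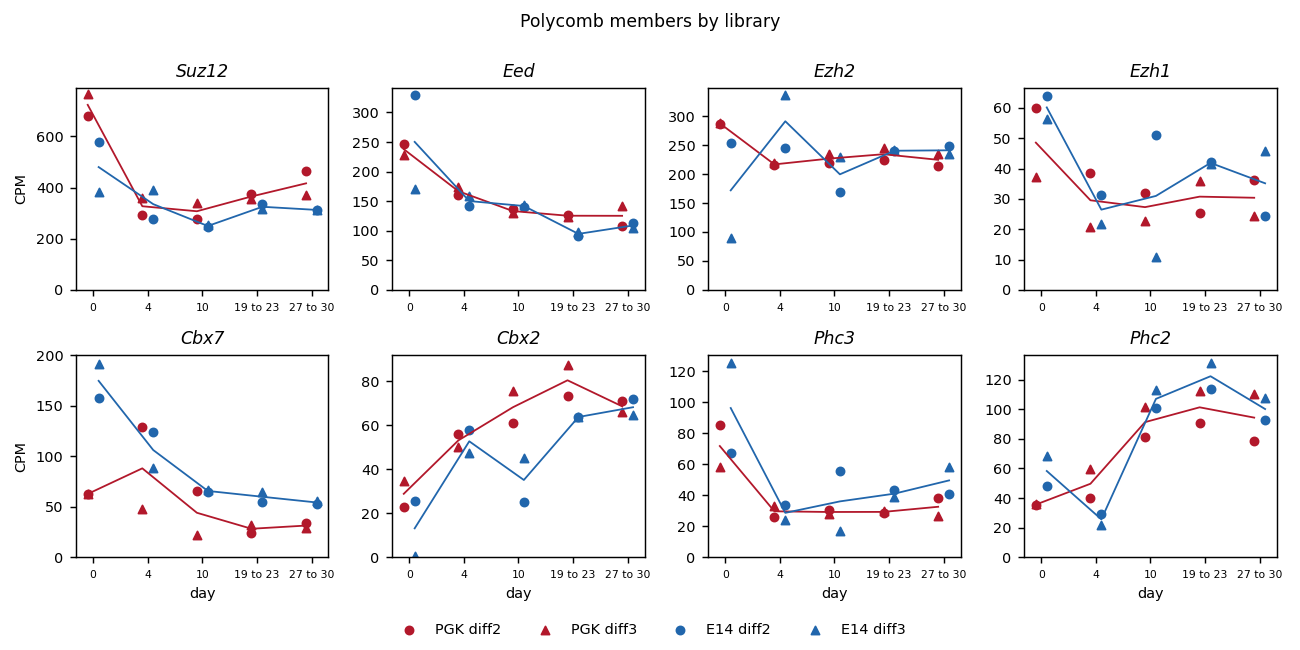
CPM of 8 polycomb members in every library by stage; circles are diff2, triangles diff3, red PGK and blue E14, and lines join the means of n = 2. Suz12, Eed and Cbx7 are lower and Cbx2 higher at the last stage than at day 0, while Ezh2 stays between 169 and 337 CPM outside 1 shallow library.

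The HP1 proteins bind methylated lysine 9 of histone H3. Here 1 of the 3, Cbx5, rose at both times (against 14.5% and then 20% of all genes). Cbx5 measured 525, 571, 521 and 660.4 CPM at day 0, 628, 1021, 792 and 1259.7 at day 4 and 927, 833, 1015 and 1204 at the last stage. The last-stage values lay above all day 0 values and the day 4 values overlapped them. The log2 change was 0.72 ± 0.21 (SE, adjusted p = 0.0206) and 0.79 ± 0.21 (SE, adjusted p = 0.00885). Its day 4 call was lost without PGK diff2 or diff3 at day 0, PGK diff3 at day 4, E14 diff2 at day 0 or E14 diff3 at day 4 (highest adjusted p 0.141), and without both shallow libraries (adjusted p = 0.123). Its last-stage call was lost without PGK diff2 at day 0 or E14 diff3 at the last stage (highest adjusted p 0.0575).

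Cbx3 read 11.4, 33.3, 12.1 and 23.7 CPM at day 0, 12.9, 51.1, 15.1 and 87.1 at day 4 and 46.6, 52.6, 53.3 and 51.9 at the last stage, and did not pass, with 1.04 ± 0.63 (SE, adjusted p = 0.245) and 1.36 ± 0.63 (SE, adjusted p = 0.102). With the replicate block the last-stage value passed (adjusted p = 0.0186). The 6 libraries that carry a code read 10.9 to 15.1 CPM, and the other 14 read 23.7 to 87.1. Cbx3 also has processed pseudogenes with sequences nearly identical to it, so reads may be split between them. Cbx1 measured 103, 66.9, 122 and 80.3 CPM at day 0, 172, 86.0, 207 and 116 at day 4 and 90.9, 71.0, 84.3 and 72.5 at the last stage, with log2 changes of 0.65 ± 0.26 (SE, adjusted p = 0.0784) and -0.23 ± 0.26 (SE, adjusted p = 0.518), and passed at day 4 with the replicate block (adjusted p = 0.0364).

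No class I HDAC passed in either comparison (against 25.6% of all genes at day 4 and 35.9% at the last stage). Hdac2 measured 312, 347, 284 and 182 CPM at day 0, 234, 262, 334 and 392.03 at day 4 and 313, 344, 345 and 342 at the last stage, with log2 changes of 0.13 ± 0.20 (SE, adjusted p = 0.698) and 0.26 ± 0.20 (SE, adjusted p = 0.324). Hdac3, which works with the NCoR corepressor, measured 115, 83.5, 102 and 76.4 CPM at day 0, 110.4, 91.3, 124 and 141 at day 4 and 122, 114, 116 and 105 at the last stage, with 0.32 ± 0.18 (SE, adjusted p = 0.232) and 0.27 ± 0.18 (SE, adjusted p = 0.271). Hdac1 read 14.5, 14.4, 19.3 and 2.96 CPM at day 0, 21.2, 19.3, 21.6 and 9.90 at day 4 and 17.1, 19.6, 17.3 and 15.1 at the last stage, with 0.49 ± 0.44 (SE, adjusted p = 0.457) and 0.40 ± 0.44 (SE, adjusted p = 0.512). It has a pseudogene at 99.377% identity over 1444 bases, so its level is uncertain.

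In classes II and IV, Hdac9 rose and Hdac6 and Hdac7 fell at day 4 (against 14.5% and 11.1% of all genes). Hdac9, a class IIa enzyme, read 0.0812, 0.0935, 0.224 and 0 CPM at day 0, 3.86, 8.13, 7.88 and 23.8 at day 4 and 6.87, 3.73, 7.88 and 8.10 at the last stage. Each line held 3 counts of it at day 0 in all, so the ratio of summed counts at day 4 was 72.4 in PGK (95% exact counting interval 24.5 to 354) and 55.6 in E14 (18.7 to 273). The last stage gave 60.6 (20.5 to 296) and 44.8 (15.2 to 218). All later values lay above every day 0 value, and the test gave an adjusted p of 5.41e-05 at day 4 and 8.36e-05 at the last stage. The intervals cover counting error only, and a fitted fold change at so few counts depends on edgeR's prior count.

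Hdac6, the mainly cytoplasmic tubulin deacetylase, is X-linked and measured 460.4, 244, 225 and 269.5 CPM at day 0, 210.3, 114, 133 and 75.7 at day 4 and 161, 128, 172 and 172 at the last stage. Its values at these stages lay below all day 0 values, but at days 19 to 23 it measured 149.97, 169, 247 and 332 CPM, so the E14 libraries of that stage overlapped day 0. It gave log2 changes of -1.16 ± 0.25 (SE, adjusted p = 0.00250) and -0.91 ± 0.25 (SE, adjusted p = 0.00892), both kept in all 8 fits without 1 library. Hdac7, another class IIa enzyme, measured 70.3, 25.996, 66.0 and 17.2 CPM at day 0, 5.96, 8.08, 11.6 and 14.8 at day 4, 48.2, 21.6, 60.4 and 14.2 at day 10 and 23.3, 23.3, 27.7 and 29.1 at the last stage. The day 4 values lay below all day 0 values, and the diff2 libraries read higher than diff3 at days 0 and 10. Its log2 change was -2.22 ± 0.49 (SE, adjusted p = 0.00300) at day 4, 1.88 ± 0.48 (SE, adjusted p = 0.0386) from day 4 to day 10, and -0.83 ± 0.46 (SE, adjusted p = 0.179) at the last stage, which did not pass. Without both shallow libraries the last-stage change of Hdac7 was -1.16. The rise after day 4 was lost without PGK diff2 or diff3 at day 4, PGK diff2 at day 10, E14 diff2 or diff3 at day 4 or E14 diff2 at day 10 (highest adjusted p 0.219). Hdac11, of class IV, measured 9.58, 3.55, 11.9 and 0.296 CPM at day 0 and 18.2, 20.6, 14.04 and 24.9 at the last stage and gave 0.67 ± 0.62 (SE, adjusted p = 0.476) and 1.55 ± 0.63 (SE, adjusted p = 0.0643). Its last-stage value passed with no low-count filter (adjusted p = 0.0343), DESeq2 (adjusted p = 0.01985) and a term for the library code (adjusted p = 0.0105).

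Of the 7 sirtuins, Sirt3, Sirt4 and Sirt6 fell at both times and none rose. Among all genes 11.1% fell and 14.5% rose at day 4, and 15.9% and 20% at the last stage. Sirt3 and Sirt4 are mitochondrial enzymes and Sirt6 is nuclear. Sirt3 measured 23.3, 18.2, 41.4 and 33.8 CPM at day 0, 6.80, 6.21, 15.5 and 8.91 at day 4 and 11.6, 10.8, 13.0 and 15.6 at the last stage, without overlap. The log2 change was -1.62 ± 0.43 (SE, adjusted p = 0.0110) and -1.16 ± 0.42 (SE, adjusted p = 0.0428). The last-stage call was lost without PGK diff2 at day 0, PGK diff2 or diff3 at the last stage or E14 diff2 or diff3 at the last stage (highest adjusted p 0.111), with no low-count filter (adjusted p = 0.0685), with the replicate block (adjusted p = 0.0540), and with a term for the library code (adjusted p = 0.109). Sirt4 measured 12.6, 9.12, 30.4 and 14.5 CPM at day 0, 3.58, 4.29, 2.72 and 4.45 at day 4 and 5.40, 0.991, 2.69 and 7.41 at the last stage, again without overlap, and gave -2.06 ± 0.62 (SE, adjusted p = 0.0213) and -1.98 ± 0.61 (SE, adjusted p = 0.0180). The day 4 call of Sirt4 was lost without PGK diff2 at day 0, PGK diff2 or diff3 at day 4 or E14 diff2 at day 4 (highest adjusted p 0.0923). At the last stage it was lost without PGK diff3 at the last stage or E14 diff2 at the last stage (highest adjusted p 0.0817). Sirt6 measured 41.2, 25.3, 42.0 and 29.02 CPM at day 0, 20.1, 8.81, 19.7 and 9.40 at day 4 and 17.3, 14.2, 17.4 and 13.2 at the last stage, all later values lying below day 0. It gave -1.22 ± 0.36 (SE, adjusted p = 0.0202) and -1.16 ± 0.36 (SE, adjusted p = 0.0191). The day 4 call of Sirt6 was lost without PGK diff2 at day 0, PGK diff3 at day 4 or E14 diff3 at day 4 (highest adjusted p 0.108). At the last stage that of Sirt6 was lost without PGK diff2 at day 0, PGK diff3 at the last stage or E14 diff3 at the last stage (highest adjusted p 0.0705), and with a term for the library code (adjusted p = 0.0509). The other 4 did not pass, and Sirt1 gave 0.24 and 0.09.

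Histone demethylases moved in both directions at day 4, with 2 of 14 higher and 2 lower (against 14.5% and 11.1% of all genes). At the last stage 3 were lower (against 15.9%). Kdm3a and Kdm3b, which remove methyl groups from lysine 9 of histone H3, fell at both times. Kdm3a measured 175, 423, 317 and 371 CPM at day 0, 148, 101, 119 and 149 at day 4 and 118, 96.6, 127 and 192 at the last stage, and only the lowest day 0 value, in PGK diff2, fell within the range of the last stage. Kdm3b measured 254, 361, 463 and 412, then 173, 147, 163 and 104 and 139, 140.3, 152 and 158, with no overlap. The log2 changes were -1.30 ± 0.32 (SE, adjusted p = 0.00649) and -1.31 ± 0.32 (SE, adjusted p = 0.00442) for Kdm3a, and -1.30 ± 0.20 (SE, adjusted p = 0.000116) and -1.33 ± 0.20 (SE, adjusted p = 6.68e-05) for Kdm3b, all kept in all 8 fits without 1 library.

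Kdm2a and Kdm2b, which act on lysine 36 of histone H3, rose at day 4. Kdm2a measured 107, 134, 125 and 161 CPM at day 0, 191, 184, 203 and 200.5 at day 4 and 175, 182, 164 and 172 at the last stage, with log2 changes of 0.59 ± 0.17 (SE, adjusted p = 0.0161) and 0.39 ± 0.17 (SE, adjusted p = 0.0763). Its day 4 values lay above all day 0 values. Kdm2a no longer passed without PGK diff2 at day 0, PGK diff2 at day 4 or E14 diff2 at day 0 (highest adjusted p 0.107), and with no low-count filter (adjusted p = 0.0705). Kdm2b, which brings a variant PRC1 to CpG islands, measured 103, 141, 70.2 and 56.6 CPM at day 0, 159, 142.3, 172 and 119 at day 4 and 94.0, 81.6, 102 and 108 at the last stage, with 0.77 ± 0.24 (SE, adjusted p = 0.0291) and 0.11 ± 0.24 (SE, adjusted p = 0.750). Its day 4 call was lost without PGK diff2 at day 0, PGK diff2 or diff3 at day 4, E14 diff3 at day 0 or E14 diff2 at day 4 (highest adjusted p 0.141), and without both shallow libraries (adjusted p = 0.0720). Kdm2b shares an exon stretch with Rnf34, so its reads may be divided. Kdm5b, a lysine 4 demethylase, measured 387, 729, 639.8 and 401 CPM at day 0 and 316, 326, 369.9 and 427 at the last stage, with a log2 change of -0.61 ± 0.23 (SE, adjusted p = 0.0491). This call was lost without PGK diff3 at day 0, PGK diff2 or diff3 at the last stage, E14 diff2 at day 0 or E14 diff2 or diff3 at the last stage (highest adjusted p 0.188), with the replicate block (adjusted p = 0.0530), and with a term for the library code (adjusted p = 0.0950). Kdm4d had a highest value of 2.26 CPM and is not described further.

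Setd7 changed most of the SET domain genes, where 1 of 11 rose and none fell at day 4, and 1 rose and 2 fell at the last stage. The shares of all genes were 14.5% upward and 11.1% downward at day 4, and 20% and 15.9% at the last stage. Setd7 methylates lysine 4 of histone H3 and several other proteins. It measured 28.1, 23.8, 11.2 and 21.03 CPM at day 0, 108, 192, 202 and 407 at day 4 and 210.0, 209, 237 and 223 at the last stage. The lowest later value was 108 CPM and the highest day 0 value 28.1, with log2 changes of 3.43 ± 0.28 (SE, adjusted p = 2.64e-07) and 3.44 ± 0.28 (SE, adjusted p = 1.51e-07), kept in all 8 fits without 1 library. Its annotated span overlaps that of 5031434O11Rik on the opposite strand over 845 bases. The use of strand in counting is not given, so reads from exon bases shared there cannot be told apart. The 5031434O11Rik entry itself held 0 to 9 counts per library. Setdb1, which places methyl groups on lysine 9, measured 174, 202, 251 and 224 CPM at day 0 and 170.3, 147, 150.1 and 141 at the last stage, and gave -0.26 ± 0.15 (SE, adjusted p = 0.228) at day 4 and -0.49 ± 0.15 (SE, adjusted p = 0.0210) at the last stage. The last-stage call of Setdb1 was lost without PGK diff3 at the last stage or E14 diff3 at the last stage (highest adjusted p 0.0885), and with no low-count filter (adjusted p = 0.0897). Setd6 measured 73.1, 34.3, 70.9 and 51.2 CPM at day 0 and 42.6, 31.5, 30.1 and 33.8 at the last stage, with -0.68 ± 0.27 (SE, adjusted p = 0.0706) and -0.75 ± 0.26 (SE, adjusted p = 0.0363). For Setd6 it was lost without PGK diff2 at day 0, PGK diff3 at the last stage, E14 diff2 at day 0 or E14 diff2 or diff3 at the last stage (highest adjusted p 0.181), with no low-count filter (adjusted p = 0.0716), and with a term for the library code (adjusted p = 0.114). Setd8, which places a methyl group on lysine 20 of histone H4, measured 163, 138, 133 and 152 CPM at day 0 and 188, 189, 219 and 153 at day 4 and did not pass, with 0.38 ± 0.18 (SE, adjusted p = 0.130) and 0.22 ± 0.18 (SE, adjusted p = 0.357).

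Of the 10 CHD remodellers, 4 rose and 1 fell at day 4 (against 14.5% and 11.1% of all genes), and 4 rose and 0 fell at the last stage (against 20% and 15.9%), with no test of the group. Of the day 4 rises, those of Chd4, Chd7 and Chd9 were each lost in 4 or 5 of the 8 fits without 1 library. Chd1, which binds methylated lysine 4 of histone H3, measured 191, 202, 193 and 155 CPM at day 0, 341, 350.0, 354 and 346 at day 4 and 372, 316, 353 and 358 at the last stage. Its day 0 and later ranges did not meet, with log2 changes of 0.93 ± 0.15 (SE, adjusted p = 0.000309) and 0.91 ± 0.15 (SE, adjusted p = 0.000252), kept in all 8 fits. Chd7 went from 47.3, 44.4, 55.3 and 50.6 CPM at day 0 to 92.7, 77.3, 107 and 65.3 at day 4 and 147, 98.8, 157 and 219.6 at the last stage. It gave 0.82 ± 0.24 (SE, adjusted p = 0.0173) and 1.61 ± 0.24 (SE, adjusted p = 6.99e-05). The day 4 call was lost without PGK diff2 or diff3 at day 0, PGK diff2 at day 4, E14 diff3 at day 0 or E14 diff2 at day 4 (highest adjusted p 0.0978).

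Chd4, the ATPase of the NuRD complex, measured 655, 533, 527 and 446 CPM at day 0, 880.4, 719, 870.3 and 669 at day 4 and 776, 726, 755 and 780.2 at the last stage, all higher values than the highest at day 0. It gave 0.56 ± 0.16 (SE, adjusted p = 0.0173) and 0.49 ± 0.16 (SE, adjusted p = 0.0273). The day 4 call was lost without PGK diff3 at day 0, PGK diff2 at day 4, E14 diff3 at day 0 or E14 diff2 at day 4 (highest adjusted p 0.107), and with no low-count filter (adjusted p = 0.0578). The last-stage call of Chd4 was lost without PGK diff2 or diff3 at day 0, PGK diff2 or diff3 at the last stage, E14 diff3 at day 0 or E14 diff2 or diff3 at the last stage (highest adjusted p 0.155), with no low-count filter (adjusted p = 0.0770), and without both shallow libraries (adjusted p = 0.0700). Chd6 rose from 121, 127, 122 and 207 CPM at day 0 to 269, 213, 260.5 and 333 at the last stage, with 0.90 ± 0.24 (SE, adjusted p = 0.00727), following 0.54 ± 0.24 (SE, adjusted p = 0.103) at day 4. It was lost without E14 diff3 at the last stage (highest adjusted p 0.0512). Chd9 went from 251, 267, 102 and 129 CPM at day 0 to 528, 288, 325 and 229 at day 4 and 289.7, 226, 155 and 222 at the last stage, giving 0.98 ± 0.29 (SE, adjusted p = 0.0208) and then 0.34 ± 0.29 (SE, adjusted p = 0.381). For Chd9 the day 4 call was lost without PGK diff2 or diff3 at day 0, PGK diff2 at day 4, E14 diff2 at day 0 or E14 diff2 at day 4 (highest adjusted p 0.131). Chd3, another NuRD ATPase, went from 49.3, 43.8, 34.5 and 72.9 CPM at day 0 to 16.4, 25.6, 22.5 and 27.7 at day 4, without overlap, and to 73.4, 47.9, 59.3 and 114 at the last stage. It gave -1.09 ± 0.36 (SE, adjusted p = 0.0354) and 0.54 ± 0.35 (SE, adjusted p = 0.256). For Chd3 the day 4 call was lost without PGK diff2 at day 0, PGK diff2 at day 4, E14 diff3 at day 0 or E14 diff2 or diff3 at day 4 (highest adjusted p 0.118), and without both shallow libraries (adjusted p = 0.150).

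In SWI/SNF, 3 of 9 SMARC members rose at day 4 (against 14.5% of all genes) and 2 at the last stage (against 20%). None fell at either time (against 11.1% and 15.9%). Smarca2, an alternative ATPase to Smarca4, measured 2.03, 10.2, 1.57 and 0 CPM at day 0, 6.52, 21.7, 3.61 and 9.90 at day 4 and 28.3, 32.2, 14.4 and 29.4 at the last stage. The ranges of day 0 and day 4 overlapped and those of day 0 and the last stage did not. The log2 change was 1.96 ± 0.65 (SE, adjusted p = 0.0364) and 3.36 ± 0.67 (SE, adjusted p = 0.000985). The day 4 call was lost without PGK diff2 at day 0, PGK diff3 at day 4, E14 diff3 at day 0 or E14 diff3 at day 4 (highest adjusted p 0.185), and without both shallow libraries (adjusted p = 0.195). Per kb of exon, Smarca2 was a small part of Smarca2 plus Smarca4, with 0.966% ± 1.1 in PGK at day 0 and 3.44% ± 0.49 at the last stage, and 0.107% ± 0.15 and 2.56% ± 1.3 in E14 (SD, n = 2).

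Smarce1 measured 12.7, 23.003, 13.4 and 26.1 CPM at day 0, 34.6, 67.7, 37.4 and 46.0 at day 4 and 95.8, 113, 65.7 and 58.3 at the last stage. All later values lay above every day 0 value, and the log2 change was 1.34 ± 0.42 (SE, adjusted p = 0.0280) and 2.11 ± 0.43 (SE, adjusted p = 0.00115). At days 0 and 4 the diff2 libraries, which carry the code, read lower than the diff3 ones. At day 10 the counts were 503, 2663, 333 and 2637, in libraries of 11847559, 23328891, 12024046 and 25556948 total counts. Smarce1 also has processed pseudogenes, 1 at 98.946% identity over 1233 bases, so reads may be split between them. For Smarce1 the day 4 call was lost without PGK diff2 at day 0, PGK diff3 at day 4, E14 diff2 at day 0 or E14 diff3 at day 4 (highest adjusted p 0.132), and without both shallow libraries (adjusted p = 0.0618). Smarcd1 measured 137, 115, 175 and 117 CPM at day 0 and 230.0, 188, 260.3 and 169 at day 4, with the E14 diff3 value of day 4 below the highest at day 0, and gave 0.66 ± 0.21 (SE, adjusted p = 0.0320) and then 0.46 ± 0.21 (SE, adjusted p = 0.104). Smarcd1 no longer passed without PGK diff2 or diff3 at day 0, PGK diff2 or diff3 at day 4, E14 diff3 at day 0 or E14 diff2 at day 4 (highest adjusted p 0.146), and without both shallow libraries (adjusted p = 0.0551). Smarcd2 measured 133, 76.7, 115 and 70.5 CPM at day 0 and 85.1, 57.1, 67.3 and 56.0 at the last stage, gave -0.59 ± 0.26 (SE, adjusted p = 0.0828) there, and passed with the replicate block (adjusted p = 0.0463).

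Smarca1, an ISWI ATPase and X-linked, was nearly silent at day 0. It measured 2.19, 2.06, 1.86 and 0.592 CPM at day 0, 22.9, 64.6, 43.1 and 69.3 at day 4 and 35.7, 27.5, 28.7 and 39.9 at the last stage. The lowest later value of the 16 was 17.5 CPM, and the log2 change was 4.85 ± 0.44 (SE, adjusted p = 6.50e-07) and 4.23 ± 0.43 (SE, adjusted p = 1.31e-06), kept in all 8 fits. Per kb of exon its share of Smarca1 plus Smarca5 went from 0.824% ± 0.29 to 15.5% ± 3.4 at day 4 and 11.9% ± 2.6 at the last stage in PGK, and from 0.886% ± 0.72 to 22.0% ± 4.2 and 17.0% ± 2.7 in E14. Smarca5 has pseudogenes with sequences nearly identical to it, including Smarca5-ps, so this share is uncertain. Smarcad1 measured 179.6, 321, 220.0 and 225 CPM at day 0 and 198, 198, 183 and 159 at the last stage, and Smarcal1 62.6, 57.6, 69.3 and 65.7 and 55.4, 62.4, 53.3 and 55.7. Smarcad1 and Smarcal1 did not pass, with -0.15 and -0.39 at day 4.

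**Figure D4:**
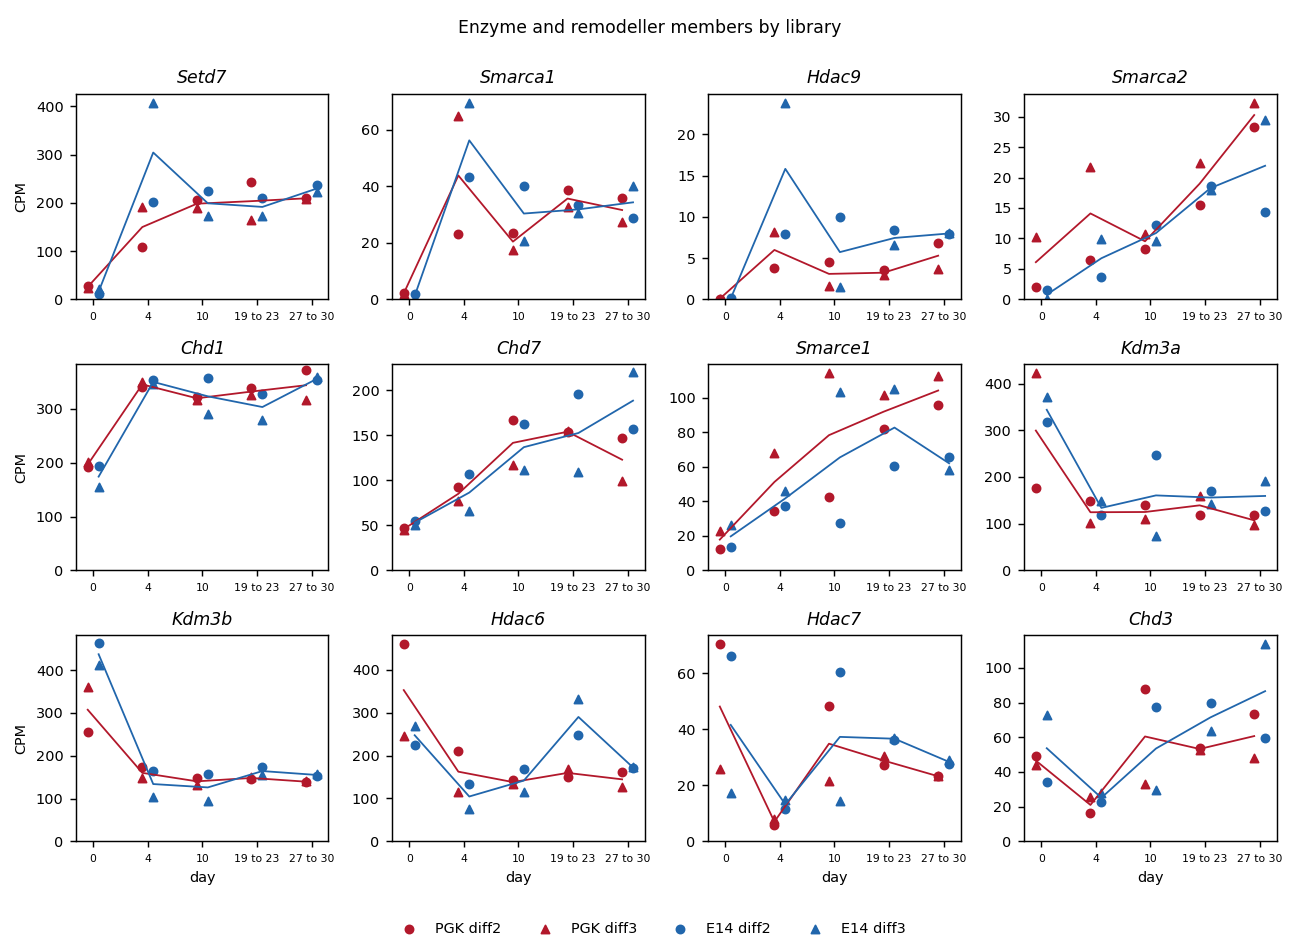
CPM of 12 enzyme and remodeller members in every library by stage; circles are diff2, triangles diff3, red PGK and blue E14, and lines join the means of n = 2. Setd7, Smarca1 and Hdac9 are near 0 or low at day 0 and higher at every later stage, Kdm3b is lower at every later stage, and Hdac7 and Chd3 have their lowest means at day 4.

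Set by level per kb at day 0, Suz12 was highest at 121.6 CPM per kb (lowest 77.0, highest 154.7, n = 4), then Chd4 at 67.4, Phc1 at 64.2, Eed at 63.8 and Cbx5 at 63.2. At the last stage Cbx5 was highest at 110.5 (92.5 to 133.7), then Chd4 at 94.7, Phc1 at 75.4, Hdac2 at 75.1 and Suz12 at 73.7. Neighbours in these orders overlapped in their ranges, except for Chd4 and Phc1 at the last stage, where Chd4 ran from 90.6 to 97.3 and Phc1 from 71.3 to 83.5.

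Directions were compared between the lines, which have their own day 0 libraries. At day 4, 66 of 87 members tested in both had the same direction (75.86%), against 71.76% of all genes, and at the last stage 69 of 87 (79.31%) against 76.33%. In line and experiment pairs, 50 of the 88 members (56.82%) had 1 direction in all 4 at day 4, against 38.27% of all genes, and 46 (52.27%) at the last stage against 42.42%. At day 10 the share was 40.91% against 42.41%, and at days 19 to 23 45.45% against 44.27%. Of the 50 at day 4, 30 were higher and 20 lower.

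Fewer members passed within a line of 10 libraries. In PGK 11 of 87 passed at day 4 (12.6%, against 14.8% of all genes), 4 upward (against 8.35%) and 7 downward (against 6.44%). For the last stage of PGK 17 passed (19.5%, against 25.1%), 9 upward (against 13%) and 8 downward (against 12%). With the replicate block the PGK count at day 4 was 17. In E14 4 of 87 passed at day 4, against 9.56% of all genes, 3 upward (against 5.16%) and 1 downward (against 4.4%). For the last stage of E14 8 passed, against 13.7%, 6 upward (against 8.73%) and 2 downward (against 4.99%). Setd7 passed in all 4, with log2 changes in PGK of 2.47 and 2.94 and in E14 of 4.31 and 3.87. Smarca1 likewise passed in all 4, with 4.31 and 3.81 in PGK and 5.35 and 4.60 in E14. Kdm3b and Hdac9 passed in all 4 as well, and Kdm3b gave -1.01 and -1.22 in PGK and -1.68 and -1.50 in E14.

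The count in PGK at day 4 was 6 without diff3 at day 4, and at the last stage it was 10 without diff3 there. In E14 the count at day 4 was 21 without diff2 at day 0, which leaves the shallow library alone there, 7 without diff3 at day 0 and 2 without diff3 at day 4. Its last-stage count was 21 without diff2 at day 0, 3 without diff2 and 2 without diff3 of that stage. Setd7 and Smarca1 kept their calls in all 4 fits that left out 1 library, in both lines and at both times. Kdm3b lost its PGK call at day 4 without diff3 at day 0 or at day 4 (highest adjusted p 0.0869). In E14 it lost the day 4 call without diff3 at day 4 (adjusted p = 0.112) and the last-stage call without diff2 or diff3 of that stage (highest 0.140). Hdac9 kept both PGK calls and lost the E14 calls without diff3 at day 4 (adjusted p = 0.0992) and without diff2 or diff3 of the last stage (highest 0.0917). Without both shallow libraries the E14 day 4 values were 0.0787 for Kdm3b and 0.0913 for Hdac9.

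**Figure D5:**
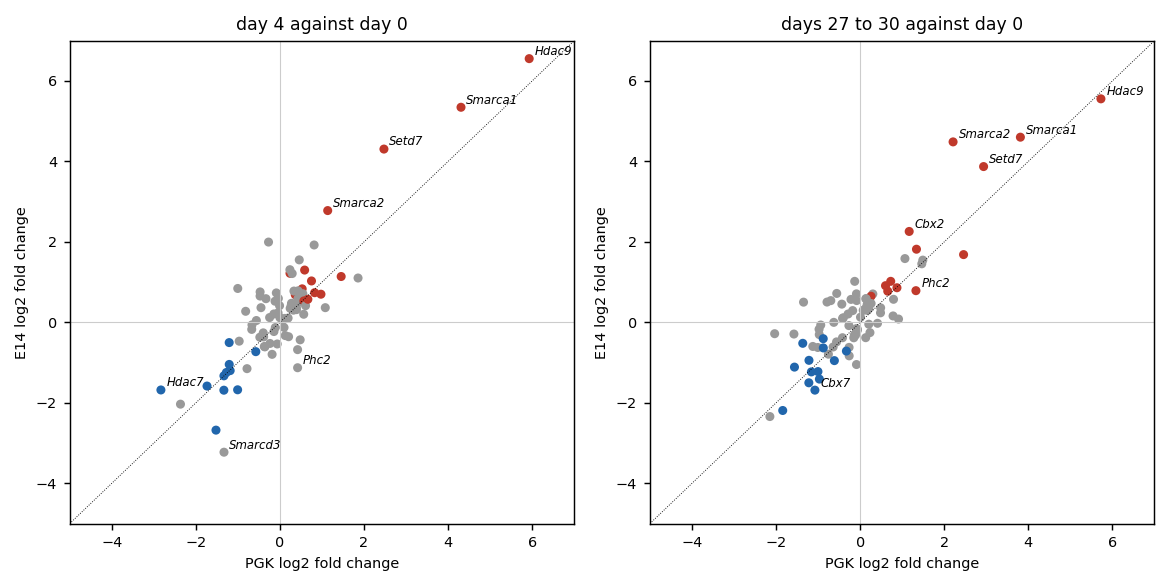
Log2 fold change in E14 (vertical) against PGK (horizontal) for the members tested in both lines, at day 4 (left) and days 27 to 30 (right), against day 0; red and blue passed over both lines upward and downward and the dotted line marks equal change. Hdac9, Smarca1 and Setd7 lie at the top right in both panels.

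No member's change differed between the lines past the threshold at day 4 (0 of 88, against 0.0763% of all genes, 0.0381% in each direction) or at the last stage (0, against 0.0509%, with 0.0191% higher and 0.0318% lower in PGK), by edgeR. At an unadjusted p under 0.05 there were 4 at day 4 and 1 at the last stage, and DESeq2 called 1 at day 4 and 0 at the last stage. At day 4 the smallest p was that of Phc2, higher in PGK by 1.58 ± 0.43 (SE, adjusted p = 0.269) on the log2 scale, and next that of Setd7, with -1.81 ± 0.52 (SE, adjusted p = 0.309), then Hdac2 with -1.10 and Ezh2 with -1.21 ± 0.51 (SE, adjusted p = 0.604). Without E14 diff2 at day 0 the count at day 4 was 13, and at the last stage also 13. A p that misses the threshold does not show that the lines act alike.

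Between the lines themselves, PGK against E14 called 0 of 88 members at day 0, at day 4 and over days 10 to 30. Of all genes, 0.502% passed at day 0 (0.286% higher and 0.216% lower in PGK), 0.165% at day 4 (0.14% and 0.0254%) and 0.318% over days 10 to 30 (0.191% and 0.127%). At an unadjusted p under 0.05 there were 9, 2 and 4 members, and DESeq2 called 2 at day 0 and 0 at the other stages. At day 0 the smallest p was that of Cbx7, at -1.41 ± 0.45 (SE, adjusted p = 0.196) on the log2 scale, so it measured 62.3 and 63.1 CPM in PGK and 157 and 192 in E14. Without E14 diff2 at day 0, 16 members passed at day 0. Of the X-linked members, Hdac6 gave 0.58 ± 0.35 (SE, adjusted p = 0.523), 0.62 ± 0.35 (SE, adjusted p = 0.849) and -0.36 ± 0.20 (SE, adjusted p = 0.712) at day 0, day 4 and days 10 to 30. Hdac8, a class I enzyme, gave 1.07, -0.75 and -0.65, and Smarca1 gave 0.64, -0.34 and -0.15, none passing.

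The other subunits and partners of these complexes, were taken from 4 lists of genes that are not members. Beside their counts stand the shares of all genes, 14.5% upward and 11.1% downward at day 4 and 20% and 15.9% at the last stage, and no list was tested as a group. Of 18 other PRC1 and PRC2 subunits, 1 rose and 1 fell at day 4 and 1 rose and 5 fell at the last stage. The PRC2 partner Mtf2 measured 441, 699, 777 and 462 CPM at day 0 and 314, 262, 223 and 354 at day 4, with a log2 change of -1.03 ± 0.22 (SE, adjusted p = 0.00209), and the PRC1 subunit Yaf2 rose (log2 change 1.7998, SE 0.51, adjusted p = 0.0163). Of 18 other SWI/SNF subunits tested, 4 rose and 1 fell at day 4, and 4 rose and 2 fell at the last stage. The Arid2 subunit gave 1.12 ± 0.18 (SE, adjusted p = 0.000161) and Pbrm1 0.82 ± 0.19 (SE, adjusted p = 0.00524) at day 4. Of 15 corepressor and NuRD partners, 1 rose and 2 fell at day 4, led by Mbd3 at 0.91 ± 0.27 (SE, adjusted p = 0.0210) and Mbd2 at -1.15 ± 0.37 (SE, adjusted p = 0.0295), and 0 rose and 2 fell at the last stage. Of 13 other methyltransferases, 3 rose and 0 fell at day 4, led by Ehmt1 at 1.09 ± 0.25 (SE, adjusted p = 0.00374) and Whsc1 at 0.92 ± 0.21 (SE, adjusted p = 0.00388), and 4 rose and 2 fell at the last stage.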

How the data were processed

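The authors deposited whole-number read counts per gene, not normalized, as 1 table per line with 23361 entries, and their normalized tables were not used. Per the submitters' processing notes, CASAVA 1.8.2, Cuffdiff and DESeq2 were named with GRCm38 (mm10); which aligner and annotation were used, and whether strand was used to count, is not given in the sources used. CPM is a count scaled to a library total of 1000000. CPM per kb divides by the exon union of GENCODE M21.

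Tests used edgeR 4.0.16 in R 4.3.3, with TMM size factors and genes kept by filterByExpr (min.count 10). Robust quasi-likelihood fits were made to all 20 libraries or to the 10 of a line. Benjamini-Hochberg adjustment ran over all genes tested, and 0.05 was the threshold. With 2 libraries per group, a value that did not pass is not shown to be unchanged. The alternatives were RLE size factors, no filter, DESeq2 1.42.0, an experiment block, a term for the library code, leaving out libraries, and the joint fit for single lines.

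The members and lists were chosen with earlier results of these data known. The values of 1 member, which enters the counts, are not reported here. Full values were given for Ezh2 and Cbx7, for up to 3 members per functional group with the smallest adjusted p at day 4 and at the last stage, for members called in later steps, for X-linked members in the comparisons of the lines, and for 2 genes per partner list. Near-identical sequences in other genes were found with blastn 2.17.0 (at least 95% identity over 500 bases) for 16 members. Among them are Cbx3, Cbx6, Chd2, Hdac1, Hdac11, Kdm1b, Kdm2b, Pcgf1, Setd1a, Setd3, Sirt5, Smarca5, Smarca5-ps, Smarcc1 and Smarce1, whose levels are uncertain where reads could be split. For Cbx6, Chd2, Kdm1b and Kdm2b the hits include a gene that overlaps the member (Npcd, 1810026B05Rik, Dek and Rnf34). Those hits can be the shared stretch itself and not a copy elsewhere. The annotated spans of 20 members, introns included, overlap another gene, in 16 of them on the opposite strand. How many of them share exon bases was not counted. Reads from shared exon bases cannot be assigned with certainty.

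Same-numbered libraries come from 1 experiment per the labels, which pairs them. Deviations from group means of same-numbered libraries correlated at -0.154 to 0.575 (median 0.0545) over 10 pairs of groups in PGK and at -0.261 to 0.25 (median 0.0815) in E14. Among days 0, 4 and 10 they correlated at 0.439, 0.497 and 0.575 in PGK and at 0.176, 0.139 and 0.25 in E14. At these stages the diff2 libraries carry the code and the diff3 ones do not, so experiment and code cannot be told apart there. The main fits had no term for either. Nothing in the labels says that the cultures were separate beyond the experiment names, so p-values measure the spread between these libraries. Replicates of a group had Pearson r of 0.912 to 0.992 across genes on log2(CPM + 1).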

Additional observations from a re-analysis of the deposited data

How the results depend on the processing

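No value that passed the test changed direction under any alternative run, and TMM or RLE scaling moved the median of all genes by at most 0.0436 on the log2 scale. Of 95 member calls, RLE lost 0, DESeq2 0, the replicate block 2, no filter 8 and the code term 5. Calls were also lost and gained without both shallow libraries and without 1 library, and these tallies do not hold them. The joint fit lost 8 of 40 single-line calls. Among values that had not passed, RLE gained 1, DESeq2 7, the replicate block 4, no filter 1 and the code term 9. The gains of DESeq2 include Cbx2, Cbx8, Pcgf3, Setd6 and Setdb1 at day 4 and Hdac11 at the last stage. Those of the code term include Cbx1, Cbx2, Cbx3, Ezh1, Pcgf3 and Setd6 at day 4 and Hdac11 and Phc1 at the last stage. Values that did not pass changed sign in these cases, given as log2 changes. Without both shallow libraries Ezh2 read -0.26 at day 4 and -0.25 at the last stage, Hdac2 -0.12, Cbx7 0.036 and Hdac8 0.13 at day 4, and Hdac8 0.0017 at the last stage. With the code term Cbx1 read 0.094 and Hdac8 0.069 at the last stage. Without 1 library at a time the day 4 values ran from -0.16 to 0.64 for Ezh2, -0.59 to 0.17 for Cbx7, -5.11 to 1.78 for Cbx8, -0.084 to 0.28 for Hdac2, -0.26 to 0.085 for Hdac8 and -0.38 to 0.039 for Smarcad1. The last-stage values ran from -0.32 to 0.48 for Ezh2, -1.41 to 3.01 for Cbx8, -0.055 to 1.34 for Hdac1, -0.057 to 0.17 for Kdm2b and -0.079 to 0.52 for Phc1.

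Counts that moved by over 1.5 times were as follows. From day 4 to day 10 (2 members), no filter gave 4, DESeq2 6 and the code term 4. In PGK at day 4 (11), DESeq2 gave 23, the replicate block 17 and the code term 25, and at the last stage (17) the code term gave 28. In E14 at day 4 (4), DESeq2 gave 13, the code term 7, the joint fit 11, and leaving out both shallow libraries, chosen after seeing the data, 2. At the last stage of E14 (8), DESeq2 gave 14 and the joint fit 13. DESeq2 called 2 members between the lines at day 0 and 1 in the line difference at day 4, where edgeR called 0. With the replicate block, which pairs the experiments, the counts over both lines were 29 at day 4, 27 at the last stage and 3 from day 4 to day 10. Over both lines the block changed the call of 6 members described in full, given beside them, and of no other such member.

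Leaving out 1 library at a time gave 14 to 34 calls over both lines at day 4, with 14 without PGK diff2 at day 0, 16 without PGK diff2 at day 4 and 17 without E14 diff2 at day 4. It gave 1 to 4 from day 4 to day 10, 0 for both later steps, and 19 to 34 at the last stage. In PGK it gave 6 to 14 at day 4 and 10 to 19 at the last stage, and in E14 2 to 21 at both. Between the lines it gave 0 to 16 at day 0, 0 at day 4 and 0 to 1 later, and for the line differences 0 to 13 at both times. The value of 16 and both values of 13 come from leaving out E14 diff2 at day 0, where the shallow library alone then stands for the group and is assumed to vary like the others.

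The floor of 3 counts was highest in the shallow libraries, and 14 members had under 3 counts in some library, so falls or rises of the lowest genes are limited there by depth.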
